A study of Mus musculus with 10 samples.

Results

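The genes described here are Npas4, Arc, Homer1, Nptx2, Ptgs2, Sik1, Crem and Srf, 8 transcripts that neurons are known to make or to use when they respond to synaptic activity. They were chosen by name, with earlier results of these data known. Each was found once among the 56691 genes of the count table, and all 8 were among the 18440 genes with enough counts to be tested. The libraries came from the ventral tegmental area, a midbrain region rich in dopaminergic neurons, of male C57BL/6 mice whose genotype is labelled WT. In both groups RNA bound to ribosomes had been enriched from dopaminergic neurons that expressed a construct labelled NBL10-HA. The 5 control libraries are labelled Ctrl, and the 5 restraint libraries came from mice held in acute restraint, a short stressor, for 30 min. The promoter or Cre line that drives the construct is not given in the sources used here, nor is it stated that each library is 1 animal, so the p-values below measure the spread between libraries, which may be technical. The comparison addresses which signalling responses appear in this RNA after restraint.

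A burst of synaptic activity raises calcium and cyclic AMP in a neuron, and the kinases that these activate reach the nucleus within minutes. There they act on the transcription factor CREB, which binds the cyclic AMP response element (CRE), and on serum response factor (SRF), which binds the CArG box. The early genes that follow include further transcription factors, regulators that switch the signal off again, and proteins that act directly at synapses. The members fall into these roles: Npas4, Srf and Crem encode transcription factors, Sik1 a kinase that restrains CREB signalling, Arc, Homer1 and Nptx2 proteins of excitatory synapses, and Ptgs2 an enzyme of prostaglandin synthesis.

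The promoters of 3 members are printed because they carry the sites by which such genes are usually grouped. The windows hold the 250 bases before the RefSeq transcription start, in GRCm38.p6, from chr17:46556163-46556412 (minus strand) for Srf, chr19:4989972-4990221 (minus strand) for Npas4 and chr13:93303507-93303756 (plus strand) for Homer1. Capitals mark the CRE core TGACG, searched on both strands so that CGTCA also counts, and matches to the CArG box.
Srf: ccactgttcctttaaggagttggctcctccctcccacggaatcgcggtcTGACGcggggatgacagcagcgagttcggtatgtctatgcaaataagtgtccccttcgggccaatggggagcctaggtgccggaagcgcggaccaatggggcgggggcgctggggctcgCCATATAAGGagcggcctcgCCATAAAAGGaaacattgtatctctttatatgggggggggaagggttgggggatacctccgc
Npas4: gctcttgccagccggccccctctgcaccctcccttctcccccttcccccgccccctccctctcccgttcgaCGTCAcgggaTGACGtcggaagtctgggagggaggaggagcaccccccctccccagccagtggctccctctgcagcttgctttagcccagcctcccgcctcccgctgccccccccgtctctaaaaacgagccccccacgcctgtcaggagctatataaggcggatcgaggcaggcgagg
Homer1: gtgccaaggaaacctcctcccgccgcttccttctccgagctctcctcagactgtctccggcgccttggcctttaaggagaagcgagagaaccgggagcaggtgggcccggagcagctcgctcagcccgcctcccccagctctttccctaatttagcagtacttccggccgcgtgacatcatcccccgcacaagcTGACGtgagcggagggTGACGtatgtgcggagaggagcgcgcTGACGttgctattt

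The Srf window held 2 CArG boxes, with their first bases 82 and 62 bases before the start, and 1 CRE core. The CArG box was found in 1.47% of the 32851 RefSeq promoter windows of the same length. The Npas4 window held 2 CRE cores, 1 on each strand, at 179 and 169 bases before the start. The Homer1 window held 3 CRE cores, the nearest at 14 bases before the start. Of all windows, 17.8% held a CRE core and 1.55% the full palindrome TGACGTCA, which contains the core on both strands. The full palindrome was in none of these 3 windows. A second Homer1 window and the Ptgs2 window matched none of the searched letters, which says only that the letters are not in those 250 bases. Windows of 4 of the 8 genes were examined. Chromosome 18, where Crem lies, was left out of this step, so nothing is said of the Crem promoter. A match is a description of the sequence and not evidence that a factor binds there.

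Totals ran from 56082358 to 86584968 counts a library. On the main principal component (22.6% of the variance of log2 CPM) restraint 1 stood apart, with a score of 92.1 against -19.2 to 4.08 in the others, and had the fewest genes with a count. Slc6a3, the dopamine transporter gene, had 232 ± 49.2 CPM in the control group against 227 ± 51.5 CPM in the restraint group. Th, which encodes the enzyme that limits dopamine synthesis, stood at 411 ± 78.6 CPM in controls (CPM, read counts scaled to library size with TMM; mean ± SD, n = 5) and 477 ± 65.3 after restraint, so the labelled cell type had its marker. All 9 dopamine neuron markers were above 4.00 CPM in every library, and their summed level ran from 1031 to 1542 CPM in controls and from 1228 to 1730 CPM after restraint. That sum is mostly Th, Ddc, Slc6a3 and Slc18a2. Of the 9 markers, 5 less abundant ones reached an unadjusted p under 0.05 as higher and 0 as lower, and are named after their values were seen. They were En1 (log2 fold change 0.57 ± 0.11, edgeR adjusted p = 0.0662), Foxa2 (0.46 ± 0.12), Pitx3 (0.56 ± 0.20), Nr4a2 (0.30 ± 0.10) and Drd2 (0.30 ± 0.13). By the same edgeR count, 5.64% of all genes tested were higher and 6.04% lower. Of the other lists, 3 of 5 vascular, 2 of 5 oligodendrocyte and 1 of 6 astrocyte markers were higher and 0 lower. The microglia, GABA neuron and glutamate neuron lists had 0 in either direction. Other cell types were present too: 6 astrocyte markers summed to 3570 to 4119 CPM in controls and 4065 to 5127 CPM after restraint, led by Gfap (1919 ± 121 and 2471 ± 316 CPM; edgeR adjusted p = 0.118, DESeq2 0.0148). Oligodendrocyte markers summed to 1291 to 1611 and 1280 to 1770 CPM, and markers of GABA neurons to 866 to 1224 and 901 to 1261 CPM, and of glutamate neurons to 411 to 441 and 355 to 481 CPM. Microglial markers (11.6 to 19.5 and 12.9 to 17.2 CPM) and vascular markers (8.11 to 13.2 and 10.7 to 18.2 CPM) were low, and 0 of the 36 markers were at 0 in any library. The values below therefore belong to the enriched RNA as a whole. Whether other cells contribute to them was not tested, and fewer cells of a type cannot be told apart from less RNA per cell.

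No single member was separated from its control level by restraint. With the edgeR quasi-likelihood test and Benjamini-Hochberg adjustment over every gene tested, 0 of the 8 were called higher and 0 lower (adjusted p under 0.05), where 0.00542% of all genes tested were called higher and 0.0163% lower. DESeq2 called 0 of the 8, where it called 0.634% of all genes higher and 1% lower, and limma-voom also 0 of the 8, against 0.00542% and 0.0163%. At an unadjusted p under 0.05 edgeR took 1 member, Arc, as higher and 0 as lower, against 5.64% and 6.04% of all genes. The control and restraint libraries overlapped for all 8, while 1.25% of genes lay wholly higher and 1.36% wholly lower after restraint. In 3 of the 8, Arc, Sik1 and Srf, all 5 restraint libraries exceeded the control median, as they did for 11% of all genes tested. The log2 fold changes had a median of 0.23 with 6 of 8 above 0, beside a median of -0.00 and 49.6% above 0 over all genes. Without restraint 1, the library that stood apart, they were 0.31 for Arc, 0.22 for Sik1, 0.21 for Srf and 0.19 for Npas4. Ptgs2 and Homer1 were then at 0.02, Crem at -0.03 and Nptx2 at -0.08. The median thus leans on that library, and it was not computed without it. Some cell type marker lists also had medians above 0: 0.30 for the dopamine neuron list (7 of 9 above 0), 0.20 for astrocytes (5 of 6) and 0.43 for vascular cells (5 of 5), each with 0 called. Their part in the members' values was not tested.

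**Figure D1:**
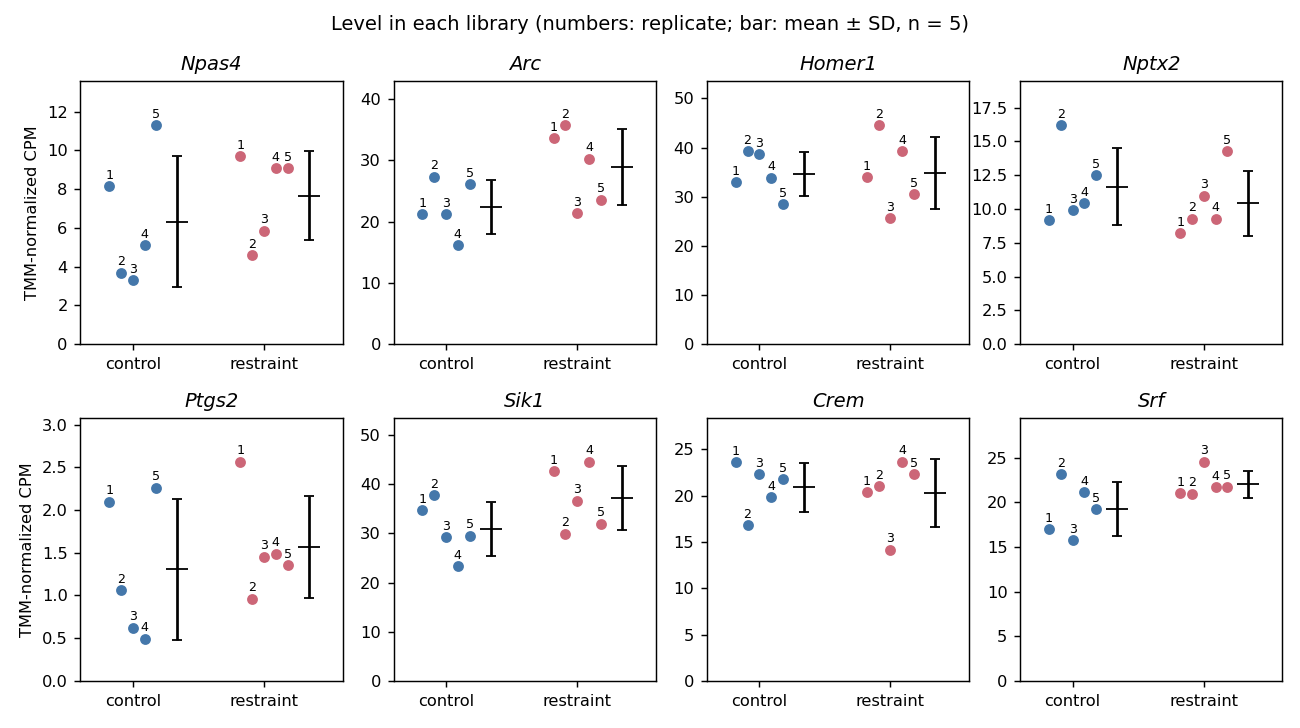
TMM-normalized CPM of each gene (y axis, from 0) in the 5 control and 5 restraint libraries (x axis), with points numbered by replicate and bars giving mean ± SD. The groups overlap in every panel; Npas4 and Ptgs2 have the highest coefficients of variation among controls (53.6% and 63.1%), and the restraint libraries of Srf lie within 21.0 to 24.6 CPM.

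Npas4 encodes a transcription factor of neurons whose transcription depends on calcium entry and which adjusts inhibitory synapses (chromosome 19, 5034383 to 5040344, GRCm39, as for the other genes below). Its level was 8.18, 3.70, 3.30, 5.10 and 11.3 CPM in controls 1 to 5 and 9.69, 4.58, 5.86, 9.10 and 9.10 CPM in restraint 1 to 5. Control 1 lay within the restraint range and control 5 above it, while controls 2 and 3 lay below every restraint library. The group means were 6.32 ± 3.39 and 7.67 ± 2.29 CPM (SD, n = 5 each), a log2 fold change of 0.28 ± 0.30 (SE, 95% interval -0.34 to 0.91; edgeR adjusted p = 0.78). An interval this wide holds a fold between 0.788 and 1.88. The coefficient of variation among controls was 53.6%, against a median of 14.5% over all genes tested, and 9.57% of genes had a higher one. The value depended on single libraries: it was 0.59 without control 5 and 0.13 without control 3, and 0.44 with limma-voom.

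Srf encodes serum response factor, which drives both early genes and genes of the actin cytoskeleton (chromosome 17, 46859255 to 46867101). It stood at 17.0, 23.2, 15.8, 21.1 and 19.3 CPM in controls 1 to 5 and at 21.0, 21.0, 24.6, 21.7 and 21.8 CPM in restraint 1 to 5. Controls 2 and 4 lay within the restraint range and the other controls below it. Means were 19.3 ± 3.01 and 22.0 ± 1.48 CPM (SD, n = 5 each), with a log2 fold change of 0.19 ± 0.11 (95% interval -0.04 to 0.42; edgeR adjusted p = 0.536; exact two-sided permutation p = 0.111). Restraint 3 was the highest library. The coefficient of variation was 15.6% in controls and 6.71% after restraint, and the difference between these was not tested.

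Crem encodes CREB family proteins, among them the short repressor ICER, which is made from an internal promoter when cyclic AMP is raised (chromosome 18, 3266048 to 3337748). The counts are per gene, so ICER and the longer forms are not told apart. Crem stood at 23.6, 16.8, 22.4, 19.9 and 21.8 CPM in controls 1 to 5 and at 20.4, 21.0, 14.2, 23.7 and 22.3 CPM in restraint 1 to 5. The 2 groups covered almost the same range, with restraint 3 and control 2 the low libraries. Its log2 fold change was -0.04 ± 0.13 (95% interval -0.32 to 0.24; edgeR adjusted p = 0.949), so these libraries place any change of the gene's sum between a fold of 0.804 and 1.18. Of its exon bases, 8.01% are shared with Gm6225, which held 123 counts over all libraries, and reads that fall on both were not assigned.

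Sik1 encodes salt-inducible kinase 1, a CREB target whose product keeps the CRTC coactivators of CREB out of the nucleus and so limits the response (chromosome 17, 32063224 to 32074778). Its level was 34.8, 37.8, 29.2, 23.4 and 29.5 CPM in controls 1 to 5 and 42.7, 30.0, 36.7, 44.6 and 32.0 CPM in restraint 1 to 5. Restraint 1 and 4 exceeded every control, while restraint 2, 3 and 5 lay within the control range. Means were 30.9 ± 5.54 and 37.2 ± 6.43 CPM (SD, n = 5 each), with a log2 fold change of 0.27 ± 0.13 (95% interval -0.02 to 0.55; edgeR adjusted p = 0.462; exact two-sided permutation p = 0.143). Leaving out control 4, its lowest library, gave 0.18.

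Arc encodes a protein that is translated near active synapses and takes part in the internalization of AMPA receptors (chromosome 15, 74540932 to 74544419). It had 21.3, 27.4, 21.3, 16.2 and 26.1 CPM in controls 1 to 5 and 33.7, 35.8, 21.4, 30.3 and 23.6 CPM in restraint 1 to 5. Restraint 1, 2 and 4 exceeded every control, and restraint 3 and 5 lay inside the control range. The log2 fold change of 0.37 ± 0.15 (95% interval 0.04 to 0.69, a fold of 1.03 to 1.62) was the largest among the 8. Its edgeR p was 0.0291 before adjustment and 0.352 after adjustment over all genes, and the exact two-sided permutation p was 0.0873, where 5 against 5 libraries can reach 0.00794. Arc thus did not pass. It was 0.27 without control 4 and 0.31 without restraint 1, the library that stood apart.

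Homer1 encodes a scaffold of the postsynaptic density that links metabotropic glutamate receptors to calcium stores (chromosome 13, 93436143 to 93541637). Activity is known to shift its transcripts to the short form Homer1a, which uncouples these links. The count sums all forms over 11976 exon bases, so a shift between forms would not show. The gene stood at 33.02, 39.3, 38.7, 33.9 and 28.5 CPM in controls 1 to 5 and at 34.1, 44.6, 25.7, 39.2 and 30.5 CPM in restraint 1 to 5. Both the highest and the lowest library were restraint libraries, and the means were 34.7 ± 4.45 and 34.8 ± 7.37 CPM (SD, n = 5 each). The log2 fold change was 0.01 ± 0.13 (95% interval -0.27 to 0.29; edgeR adjusted p = 0.992).

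Nptx2 encodes neuronal pentraxin 2, also called Narp, a secreted protein that gathers AMPA receptors at synapses (chromosome 5, 144482712 to 144494288). It had 9.18, 16.2, 9.91, 10.4 and 12.5 CPM in controls 1 to 5 and 8.22, 9.30, 10.99, 9.29 and 14.3 CPM in restraint 1 to 5. Control 2 and restraint 5 were the high libraries of their groups, and the remaining 8 ran from 8.22 to 12.5 CPM. The log2 fold change was -0.16 ± 0.17 (95% interval -0.52 to 0.20; edgeR adjusted p = 0.788). It was -0.01 without control 2 and -0.31 without restraint 5.

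Ptgs2 encodes cyclooxygenase-2, which in neurons is induced by synaptic activity and makes the precursor of prostaglandins (chromosome 1, 149975782 to 149983978). It was the least abundant member, with 36 to 178 counts a library. Its level was 2.10, 1.06, 0.625, 0.495 and 2.26 CPM in controls 1 to 5 and 2.57, 0.965, 1.46, 1.49 and 1.35 CPM in restraint 1 to 5. Controls 1 and 5 and restraint 1 were high, and controls 3 and 4 low. The log2 fold change was 0.26 ± 0.40 (95% interval -0.58 to 1.11; edgeR adjusted p = 0.865). Without restraint 1 it was 0.02, without control 5 0.54 and with limma-voom 0.50. The coefficient of variation among controls was 63.1%, and 6.10% of genes tested had a higher one.

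**Figure D2:**
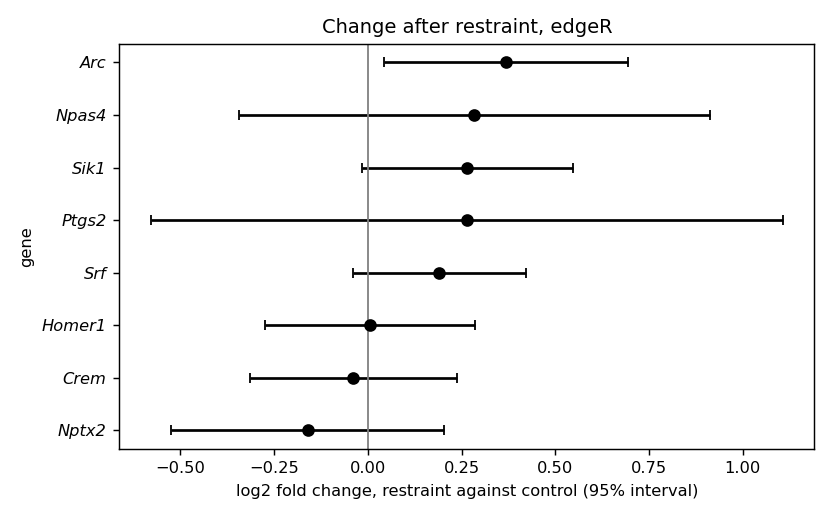
Log2 fold change of each gene after restraint against control (x axis) from edgeR, with 95% intervals as bars and the genes ordered by value (y axis). The interval of Arc, 0.04 to 0.69 before any adjustment, lies above 0, and those of the other 7 genes include 0.

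Levels per kilobase of exon allow a rough comparison of genes. The length covers all annotated exons of a gene, and the forms of Homer1 and Crem were not told apart. On this scale Arc had the highest level over the 10 libraries, 8.41 ± 2.02 CPM per kb (mean ± SD). It was followed by Srf (7.14 ± 0.92), Sik1 (6.64 ± 1.28), Nptx2 (4.35 ± 1.01), Crem (3.50 ± 0.51), Homer1 (2.90 ± 0.48), Npas4 (1.69 ± 0.68) and Ptgs2 (0.314 ± 0.15), all in CPM per kb. Sik1 exceeded Nptx2, and Npas4 exceeded Ptgs2, in 10 of 10 libraries. The order of Srf and Sik1 held in only 6 of 10 libraries and that of Nptx2 and Crem in 7. Those of Arc and Srf and of Crem and Homer1 held in 8, and that of Homer1 and Npas4 in 9. The mean ± SD ranges of these neighbours overlapped, apart from Homer1 and Npas4, whose ranges do not meet. Differences between neighbours within libraries were not tested.

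Libraries did not order the members in 1 way. Control 4 held the lowest level of 3 members (Arc, Ptgs2 and Sik1), control 3 of 2 (Npas4 and Srf) and restraint 3 of 2 (Homer1 and Crem). The highest level lay in a restraint library for 6 of the 8 and in a control for Npas4 (control 5) and Nptx2 (control 2). Relative to the control mean, restraint 4 and restraint 5 were above it for 7 members each, restraint 1 for 5, restraint 2 for 4 and restraint 3 for 3. Among controls this count ran from 1 (control 4) to 6 (control 5).

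**Figure D3:**
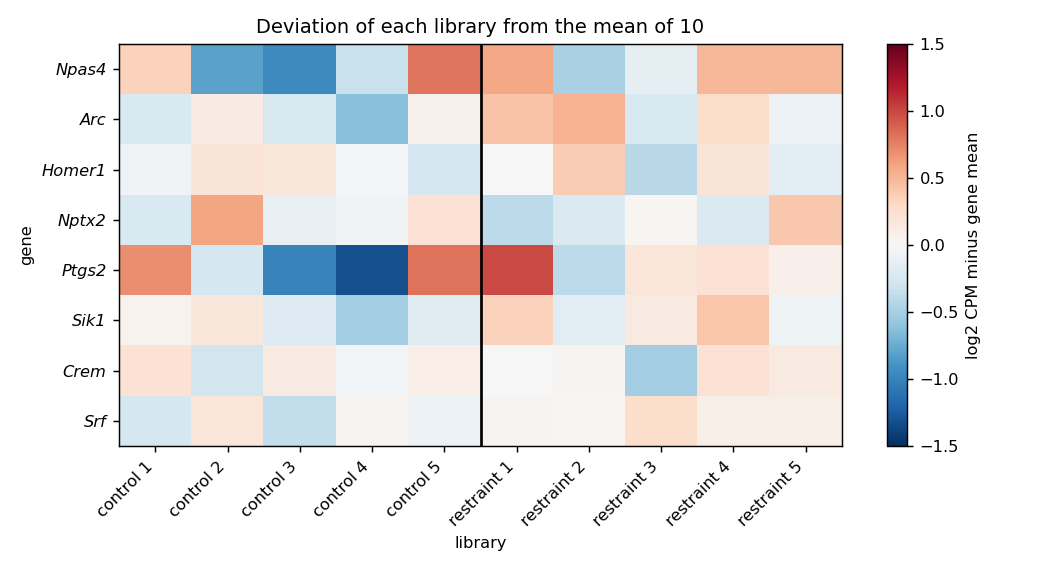
Log2 CPM of each gene (rows) in each library (columns, controls left of the line) minus the mean of that gene over the 10 libraries, as colour. Npas4 and Ptgs2 share high values in controls 1 and 5 and restraint 1, and Crem and Homer1 share a low value in restraint 3.

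Npas4 and Ptgs2 had the highest r and rho of any pair over all libraries. Over the 10 libraries their log2 CPM had a Pearson r of 0.795 (permutation p = 0.00687) and a Spearman rho of 0.818 (permutation p = 0.00617). Adjusted over the 28 pairs of members these were 0.192 and 0.173, so 0 of 28 pairs passed. As deviations from the group means r was 0.774 (permutation p = 0.0106), and without controls 2 and 3, the libraries farthest from the Npas4 median, it was 0.785. Ptgs2 ranked 35th of 18439 genes by r with Npas4. Of the other pairs, Crem and Srf had an r of -0.668 with a permutation p of 0.0356 (0.392 when adjusted) and a rho of -0.564 with a permutation p of 0.0951 (0.579 when adjusted). Without control 2 and restraint 3, the libraries farthest from the Crem median, that r was weaker, at -0.37. As deviations from the group means over all libraries, the r of Crem and Srf was -0.727 (permutation p = 0.0166, adjusted 0.233). By rank of such deviations Nptx2 and Srf (rho = 0.782, permutation p = 0.00999) equalled Npas4 and Ptgs2 (rho = 0.782, permutation p = 0.0105), while over all libraries their r was 0.358. Ptgs2 and Sik1 had an r of 0.648 with a permutation p of 0.042 (0.392 when adjusted) and a rho of 0.588 with a permutation p of 0.0797 (0.579 when adjusted). Without controls 3 and 4, the libraries farthest from the Ptgs2 median, that r too was weaker, at 0.203. Leaving out other libraries together was not tried for any pair, so how far a relation rests on those named was not tested. The labels give no batch, so no values within batches could be computed.

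**Figure D4:**
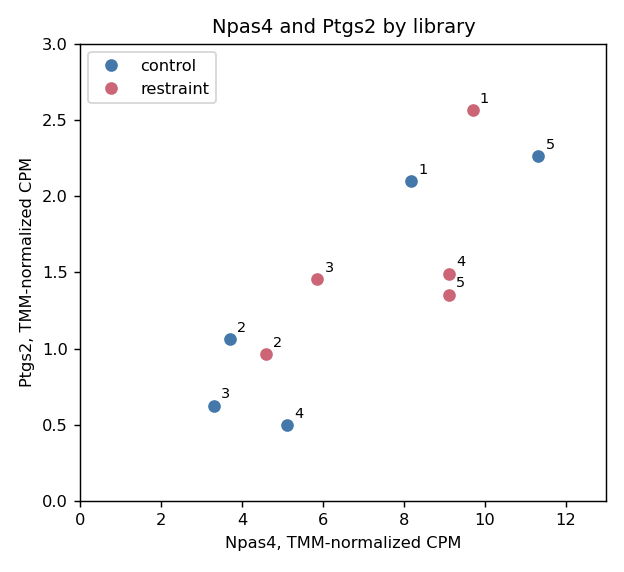
TMM-normalized CPM of Npas4 (x axis) and Ptgs2 (y axis) in each library, coloured by group and numbered by replicate. Controls 1 and 5 and restraint 1 are high in both genes, controls 2 and 3 and restraint 2 low in both.

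The genes whose log2 CPM followed each member most closely over the 10 libraries are given as a description. Each r is 1 of the 2 highest for its member and carries no test. Predicted gene models and genes without a symbol were left out of this search. The closest genes were Slc26a4 (0.942) and Car4 (0.939) for Npas4, Itgam (0.945) and Loxl3 (0.928) for Arc, and Mtmr4 (0.935) and Hr (0.913) for Homer1. For Nptx2 they were Larp1 (0.897) and Miga2 (0.892), and for Ptgs2 Sf3b3 (0.926) and Mrc1 (0.889). Sik1 was followed by Trim44 (0.945) and Btn2a2 (0.933), Crem by Ccdc38 (0.931) and Efhb (0.907), and Srf by Lman2 (0.940) and Clip2 (0.937). Slc26a4, Itgam, Btn2a2, Ccdc38 and Efhb had mean levels of 0.304 to 0.641 CPM. No member was among the 2 closest genes of another.

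The genes that carry the signal to these members showed no common direction. Of 15 tested genes of CREB activation, which include its coactivators, its kinases and the related kinase genes Sik2 and Sik3, 0 passed in either direction, 7 were above 0, and the median log2 fold change was -0.10. Sik3 had 161 ± 15.1 CPM in the control group against 196 ± 12.4 CPM in the restraint group (mean ± SD; log2 0.28 ± 0.08; edgeR adjusted p = 0.181), and passed only with DESeq2 (adjusted p = 0.0469). Camkk1, a kinase that activates the calmodulin kinase branch, had -0.35 ± 0.11 and Crtc1, a CREB coactivator, -0.31 ± 0.12, and neither passed, except Camkk1 when genes of low count were kept (edgeR adjusted p = 0.0331). Without control 2, Crtc1 was -0.18. Of 12 tested genes of SRF cofactors and the ERK cascade, 0 passed, 5 were above 0 and the median was -0.01. The ternary complex factor genes Elk1 (-0.34 ± 0.14) and Elk4 (0.19 ± 0.09) lay on opposite sides of 0, and the kinase gene Map2k1 had -0.15 ± 0.07. These are log2 fold changes with their SE.

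Downstream, 12 tested cytoskeletal targets of SRF had a median log2 fold change of 0.08, with 8 above 0 and 0 past the test. Actg1, a cytoplasmic actin gene, had 836 ± 15.6 CPM in the control group against 701 ± 54.2 CPM in the restraint group (mean ± SD; log2 -0.25 ± 0.07; edgeR adjusted p = 0.162), and passed only with DESeq2 (adjusted p = 0.0358). Ccn1 (0.41 ± 0.15) and Ccn2 (0.38 ± 0.20), genes of secreted matrix proteins, did not pass either, and Ccn2 was 0.22 without restraint 5. Other activity-induced effectors numbered 23, of which 0 passed in either direction, 17 were above 0. At an unadjusted p under 0.05, 6 of these 23 were higher and 0 lower, against 5.64% and 6.04% of all genes. The same counts were 2 higher and 2 lower for CREB activation, 1 and 2 for SRF cofactors and the ERK cascade, 1 and 1 for the cytoskeletal targets and 0 and 0 for the protein partners. With restraint 1 included, the median of the 23 other activity-induced effectors was 0.11, below the 0.23 of the 8 members. No test of that difference was made. Arl4d, a small GTPase gene, stood at 10.8 ± 1.21 and 15.9 ± 3.34 CPM (log2 0.57 ± 0.14; edgeR adjusted p = 0.137), Rrad, a Ras-related GTPase gene, at 0.72 ± 0.20 and the pseudokinase gene Trib1 at 0.46 ± 0.14 on the log2 scale. Arl4d and Rrad did pass with DESeq2 (adjusted p = 0.0148 and 0.0205), and they and Trib1 also when genes of low count were kept (edgeR adjusted p = 0.0114, 0.00174 and 0.0389). With the exon length trend removed Arl4d passed as well (edgeR adjusted p = 0.0439). These settings also called more of all genes: DESeq2 the shares given above, keeping low counts 0.317% higher and 0.612% lower, and removing the length trend 0.136% and 0.287%.

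Genes for partners of the members' proteins, such as the Npas4 partners Arnt and Arnt2, Homer and Shank scaffolds, pentraxins and prostaglandin enzymes and receptors, had 0 of 24 past the test, 15 above 0 and a median of 0.04. Those with the smallest p were Dlg4, the gene of the postsynaptic scaffold PSD-95 (0.18 ± 0.09), Ptges2, a prostaglandin E synthase gene (-0.16 ± 0.09), and Camk2b, a subunit gene of calmodulin kinase II (-0.12 ± 0.08), all log2 fold changes with SE. Ptges2 was -0.10 without control 3 and Camk2b -0.08 without control 2.

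**Figure D5:**
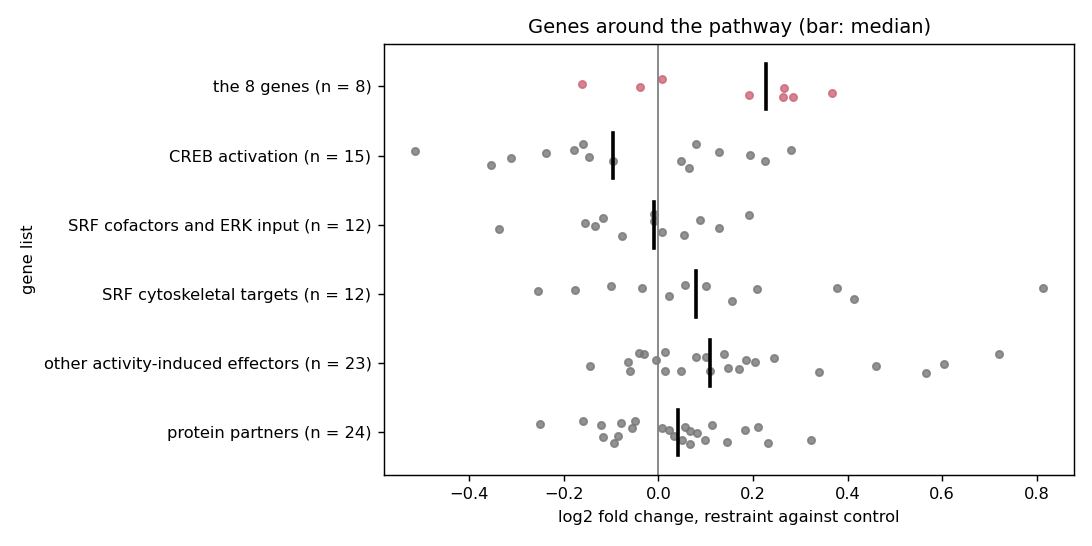
Log2 fold changes after restraint (x axis) of the 8 genes and of the tested genes of 5 pathway lists (y axis), 1 point per gene, with bars at the medians. With all libraries included, the median of the 8 genes is 0.23 and those of the lists run from -0.10 to 0.11.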

How the data were processed

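The 5 control and 5 restraint libraries (ribosome-associated RNA) were grouped and numbered by their labels. The authors deposited 1 table of whole-number counts per gene and library. It was made with featureCounts 2.0.3 on exons of the GENCODE M30 annotation, with a paired-end option but no counting of pairs, strand or multi-mapping reads, per the file headers, so each mate counts. FastQC, Trimmomatic and STAR are named without versions, and mm10 as the build, per the submitters' processing notes. GENCODE M30 annotates GRCm39, and gene coordinates are given as the deposited table holds them. Exon length is also the deposited value. No column of another sample was present, and no row lacked a gene identifier.

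Symbols were matched by identifier (52073 of 56691 genes). Genes were kept by filterByExpr (minimum count 10, minimum total 15), scaled by TMM and tested with edgeR 4.0.16 (glmQLFit and glmQLFTest; design with group alone; R 4.3.3), with Benjamini-Hochberg adjustment over 18440 genes and a threshold of 0.05. Over all genes tested, log2 fold changes had a median SE of 0.136. Log2 CPM used a prior count of 2. Permutation tests over libraries were exact for single genes and used 100000 resamples for correlations. Alternatives were RLE or library size scaling, no filter beyond 1 count, DESeq2 1.42.0 on the genes kept by the filter, limma-voom (limma 3.58.1), a replicate block, removal of each library's exon length trend (lowess, span 0.3), leaving out each library and, chosen after seeing the data, halved counts. Libraries of a group differed by far more than sampling noise (chi-square per degree of freedom 29.5 to 96.0). The members and gene lists were chosen with earlier results of these data known. Besides every member, the rule names of each list the 3 genes with the smallest p, and Th, Slc6a3 and Gfap. For each member it also names the 2 genes with the highest r, predicted gene models and genes without a symbol excluded.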

Additional observations from a re-analysis of the deposited data

Results flagged for a closer look

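Srf in restraint 3, at 24.6 CPM, lay farther from the other 4 restraint libraries (21.0 to 21.8 CPM) than Dixon's 95% limit for 5 values allows, its gap being 0.782 of the group's range against a limit of 0.71. It was the 1 such value among 16 groups of member values examined, where chance gives about 1 in 20.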

How the results depend on the processing

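The count of members past the threshold was 0 higher and 0 lower in all 18 alternative settings, and the count of member pairs past it was 0 in each setting in which it was computed. Npas4, Arc, Ptgs2, Sik1 and Srf stayed above 0 and Nptx2 below 0 in all 18. Homer1, near 0, changed sign in 10: its log2 fold change was -0.00080 with library size scaling, -0.012 with limma-voom, -0.0077 with the replicate block, -0.0057 with the exon length trend removed and -0.00012 with halved counts, and leaving out 1 library gave -0.11 to 0.090. Leaving out 1 library gave -0.10 to 0.058 for Crem and -0.13 to 0.094 for Slc6a3. The other genes examined in these settings were the 3 of each pathway list with the smallest p, and Th, Slc6a3 and Gfap. Among these, 10 gene and setting combinations passed the threshold that edgeR's main setting did not, in the same direction. The remaining named genes, such as En1, were not examined in these settings. Over all genes tested, same-numbered libraries of the 2 groups did not deviate together (r of -0.16 to 0.03). Of the 5 numbers, 0 correlated best with its own partner. Whether the numbers pair the libraries for single genes was not tested. Calls over all genes, 1 higher and 3 lower, depended on the setting: they were 117 and 185 with DESeq2, 103 and 199 with no filter beyond 1 count, 25 and 53 with the exon length trend removed, 5 and 12 with library size scaling, 9 and 83 without restraint 5, 4 and 16 without control 5, 2 and 15 without restraint 2 and 2 and 0 without restraint 1. They were 0 and 0 without control 1, 2, 3 or 4 or restraint 3 or 4. With the replicate block they were also 0 and 0, and the members' calls stayed at 0 and 0. The low counts of Ptgs2 and the spread of Npas4 limit what could be detected for both.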
